A study of Mus musculus with 2 samples.

Results

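The distal block of mouse chromosome 5 comprised every CTCF peak with its centre past a fixed position of the mm9 assembly. The last peak outside was an NPC peak from 146999661 to 147000142, which spanned that position but had its centre 99.5 bp before it. The first peak inside was an ESC peak starting at 147011196. The block ran to the last peak of the chromosome, which ended at 152525514. It held 643 of the 105572 deposited peaks, of which 266 were among the 51421 peaks of the neural precursor cell (NPC) list and 377 among the 54151 peaks of the embryonic stem cell (ESC) list. The NPC sample was derived from E14 ES cells and grown on gelatin with basic FGF and EGF. The ESC sample was the parental E14 line (E14Tg2A, IB10 cells), grown with serum and leukemia inhibitory factor. Both were immunoprecipitated with the same antibody against CTCF, with SOLiD sequencing. Both samples descend from 1 ES cell line, and the labels name no genetic alteration in either.

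There was 1 library per cell type. Each difference below is therefore between these libraries, has no replicate check and carries no p-value, and its 95% intervals reflect only the number of peaks counted. Sequencing depth is unknown, because the lists hold no read counts. The block was chosen by the overlap classes and scores of these peaks, because ESC peaks without an NPC partner were frequent in it, so every NPC against ESC contrast inside it is given as a description. The score deposited for each peak has no stated definition; it was used as a rank within its own list, written as a percentile on which 100 is the highest score.

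CTCF is a zinc-finger protein that binds a long, directional DNA motif. Together with the cohesin complex it anchors chromatin loops and separates domains of gene regulation, and many of its sites are occupied in most cell types. The block is named for a cluster of developmental genes. In the RefSeq order of protein-coding genes on GRCm38.p6, Gsx1, Pdx1, Cdx2, Urad, Flt3, Pan3 and Flt1 follow one another without another protein-coding gene between them. Gsx1 is a homeobox factor of neural progenitors, Pdx1 a homeobox factor of pancreas development and Cdx2 a homeobox factor of trophectoderm and intestine. Flt3 encodes a receptor tyrosine kinase of blood progenitors, and Flt1 a receptor for vascular endothelial growth factor. Farther along the same order lie Hmgb1, which encodes an abundant chromatin protein, Brca2, which acts in homologous recombination, Pds5b, which encodes a cohesin regulator, and Kl, which encodes klotho, a co-receptor for an FGF hormone. Genes were not placed on mm9 here, so no peak was assigned to a gene, and the label of the block could not be checked against the peaks.

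Most NPC peaks of the block were also present in ESC, whereas a large part of its ESC peaks had no counterpart in NPC. Of the 266 NPC peaks, 38 (14.3%, 95% interval 10.3 to 19.1) had no ESC peak overlapping by at least 1 bp, where the NPC list as a whole had 21.4%. Of the 377 ESC peaks, 151 (40.1%, 35.1 to 45.2) had no NPC peak, where the ESC list as a whole had 26.0%. On the rest of chromosome 5 the unshared shares were 19.5% (18.1 to 20.9) of 3253 NPC peaks and 28.4% (27.0 to 29.9) of 3625 ESC peaks. The NPC-only share of the block was thus lower than that of the rest of the chromosome, with intervals that overlapped, and its ESC-only share higher, with intervals that did not. Under a stricter rule of 50% reciprocal overlap 89 NPC peaks of the block (33.5%, 27.8 to 39.5) were unshared, where the whole NPC list had 28.1%, and 200 ESC peaks (53.1%, 47.9 to 58.2), where the whole ESC list had 31.7%. The NPC-only share of the block was thus below that of its list under the 1 bp rule but not under the stricter one, while the ESC-only share was above that of its list under both. Among peaks in the upper 50% of each list by score, 3 of 97 NPC peaks of the block were unshared (3.09%, 0.642 to 8.77, where the list had 5.01%), and 34 of 203 ESC peaks (16.7%, 11.9 to 22.6, where the list had 4.96%).

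Resolved in steps of 250 kb, the 23 steps of the block held between 2 and 22 NPC peaks and between 2 and 26 ESC peaks. ESC-only peaks outnumbered NPC-only peaks in 20 steps, and the numbers were equal in the other 3. Over the whole lists ESC-only peaks were also the more numerous, 14089 against 10984. No step counts are given here for the rest of the lists, so those of the block only describe it. In 6 steps more ESC peaks were unshared than shared; no step had more NPC-only than shared NPC peaks. That count of 6 depends on the setting, as it was 11 with 50% reciprocal overlap and 1 of 12 with steps of 500 kb. The 250 kb step that began at 148.75 Mb had most ESC-only peaks, with 17 of 26 ESC peaks unshared (65.4%), and all 9 of its NPC peaks were shared. The step before it, from 148.5 to 148.75 Mb, had 3 NPC-only peaks among 15 and 13 ESC-only peaks among 25. NPC-only peaks were most numerous from 150 to 150.25 Mb and from 150.25 to 150.5 Mb, with 5 in each step, beside 7 and 9 ESC-only peaks. The ESC-only share was lowest among the steps with at least 20 ESC peaks from 150.75 to 151 Mb, where 2 of 22 NPC peaks were NPC-only and 3 of 23 ESC peaks ESC-only.

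**Figure D1:**
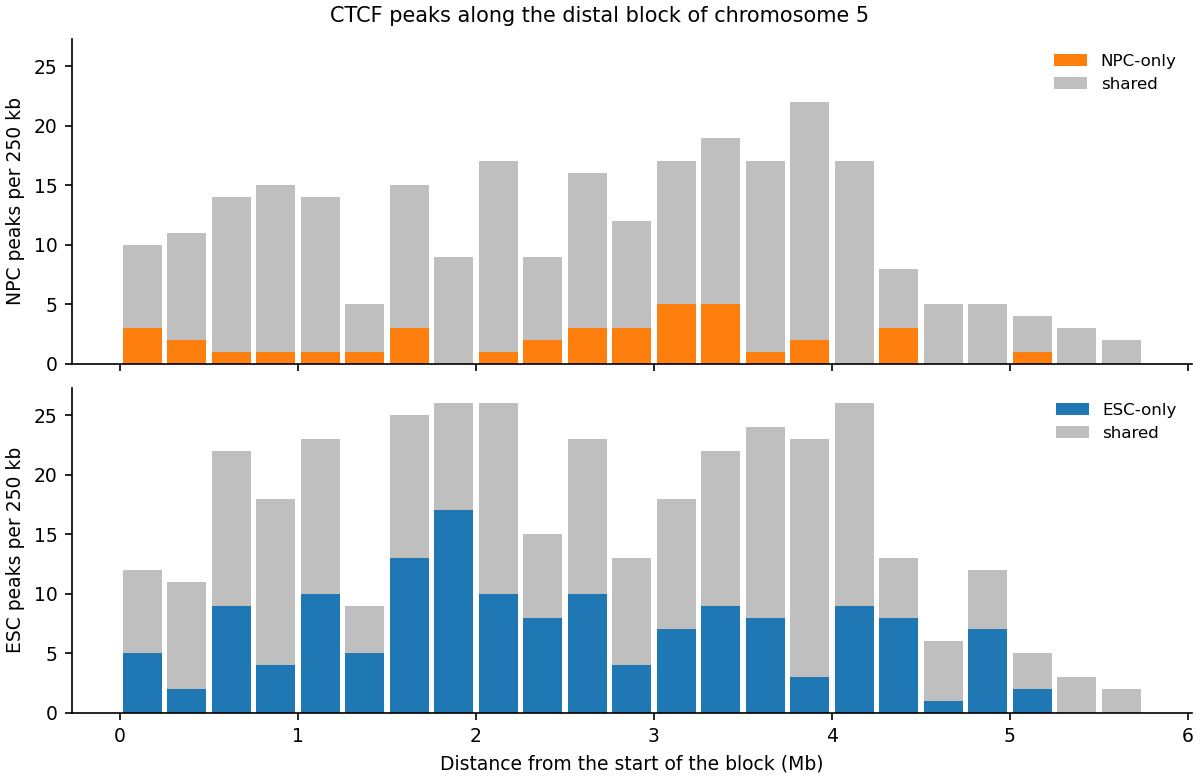
Number of CTCF peaks in each step of 250 kb of the block (y axes, peaks per 250 kb) against distance from its start in Mb (x axis), for the NPC list in the upper panel and the ESC list in the lower panel; coloured parts are peaks without an overlap in the other list and grey parts are shared peaks. ESC-only peaks outnumber NPC-only peaks in 20 of the 23 steps, and the step with most ESC-only peaks holds 17. Over the whole lists ESC-only peaks are also the more numerous, 14089 against 10984.

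The 10 highest-scoring ESC-only peaks show how strong a site could be in the ESC list while having no NPC counterpart. The strongest spanned 151904564 to 151905363, was 800 bp wide and scored 1929, rank 2054 of the ESC list, at a distance of 20575 bp from the nearest NPC peak. The next spanned 151205283 to 151206251, was 969 bp wide and scored 1899.6, rank 2217, with an NPC peak 7603 bp away. Both stood in the upper 5 percent of the ESC list, at percentiles 96.2 and 95.9. The third, at 148894919 to 148895586, scored 1195 (percentile 81.1) and lay 9575 bp from an NPC peak. The fourth, at 149197978 to 149198654, scored 1034 (percentile 75.1) and lay only 746 bp from an NPC peak. The other 6 lay at percentiles between 69.1 and 72.4. They started at 149382413 (7712 bp from the nearest NPC peak), 147719912 (2081 bp), 150258966 (1701 bp), 148629205 (880 bp), 150495013 (9184 bp) and 148095875 (8083 bp).

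Over all 151 ESC-only peaks of the block the distance to the nearest NPC peak ranged from 63 to 79974 bp, with a median of 6496 bp. There were 21 within 1 kb of an NPC peak and 48 farther than 10 kb from one. No such distances are given here for ESC-only peaks elsewhere, and NPC peaks stood closer together in the block than outside it. The distances therefore only describe the block. The median percentile of its ESC-only peaks in the ESC list was 28.4 (24.8 to 34.6), against 20.7 (20.3 to 21.1) for the ESC-only peaks of the rest of the list. ESC-only peaks above the median score of the ESC list numbered 34 in the block (22.5% of its ESC-only peaks), against 9.38% of the ESC-only peaks elsewhere. On the rest of chromosome 5 the ESC-only peaks had a median percentile of 23.3 (21.6 to 24.6), and 10.3% of them lay above that median score. Because the block was chosen by overlap class and score, the frequency and the higher rank of its ESC-only peaks are both a description.

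The strongest NPC-only peaks ranked lower in their list than the strongest ESC-only peaks did in theirs, but were drawn from fewer peaks, 38 against 151. The strongest NPC-only peak, at 149721014 to 149721490, scored 454 (rank 23081 of the NPC list, percentile 55.1) and lay 4112 bp from an ESC peak. The next were at 147945947 to 147946314 (score 448, percentile 54.7), which had an ESC peak 869 bp away, and at 150316832 to 150317308 (score 396, percentile 50.8). These 3 were the NPC-only peaks of the block above the median score of the NPC list. The remaining 7 of the 10 strongest started at 150097551, 148706100, 151354165, 149899659, 149860579, 147238357 and 151399225, and lay at percentiles between 32.2 and 48.8. The median percentile of all 38 was 21.7 (12.3 to 27.3) in the NPC list, close to the 21.3 (20.8 to 21.8) of NPC-only peaks elsewhere. Its interval overlapped that of the ESC-only peaks of the block in the ESC list, 28.4 (24.8 to 34.6).

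Some of the unshared peaks stood side by side. Of the 38 NPC-only peaks, 17 (44.7%) had another NPC-only peak as an immediate neighbour in the NPC list, and the longest run held 3 peaks. Of the 151 ESC-only peaks, 93 (61.6%) stood in 32 runs of at least 2, and 6 runs held 5 or more. Longer runs arise more readily where the unshared share is higher, and no share of peaks in runs is given here for the rest of the lists. These numbers therefore describe the arrangement only. The longest ESC-only run held 7 successive ESC peaks over 107754 bp, from 151797610 to 151905363, with no NPC peak between its ends. Its last member was the strongest ESC-only peak described above. The other 6 members scored between 117 and 834, and 2 of the 7 lay above the median of the ESC list. The next runs held 6 peaks each, from 148053475 to 148104099 with no NPC peak inside and from 148436136 to 148521724 with 1 NPC peak inside.

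Sites found in both cell types also ranked differently. The block held 224 sites at which 1 NPC peak and 1 ESC peak overlapped each other and no other peak. Their median percentile was 44.6 (35.3 to 48.7) in the NPC list and 67.1 (63.8 to 70.8) in the ESC list. At pairs outside the block it was 59.5 in NPC and 61.7 in ESC. The percentile was lower in NPC at 178 of the 224 (79.5%), where over all 39595 such pairs of the lists it was lower at 52.9%. On the rest of chromosome 5 it was lower at 58.2% of pairs. Like shares were seen in the segments 15 to 20 Mb before the block (77.7% of 166 pairs) and 60 to 65 Mb before it (81.8% of 22 pairs). The median difference, NPC minus ESC within a pair, was -22.0 points (-27.1 to -18.7) in the block, -3.86 (-4.64 to -2.85) at the 2561 pairs of the rest of chromosome 5 and -1.12 (-1.34 to -0.87) at the 39371 pairs outside the block. A percentile at least 25 points lower in NPC was seen at 101 pairs of the block (45.1%, where all pairs had 16.4%), and one at least 25 points higher at 7 pairs (3.13%, where all pairs had 11.9%).

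The difference extended along most of the block. All 19 steps of 250 kb with at least 5 pairs had a negative median difference, from -44.5 points between 148.5 and 148.75 Mb to -7.10 points between 150.25 and 150.5 Mb. No step medians are given here outside the block, where the median over all pairs was -1.12 points. From 148.5 to 149.5 Mb the step medians were -44.5, -34.0, -33.2 and -32.4 points. From 151 to 151.25 Mb all 17 pairs ranked lower in NPC.

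**Figure D2:**
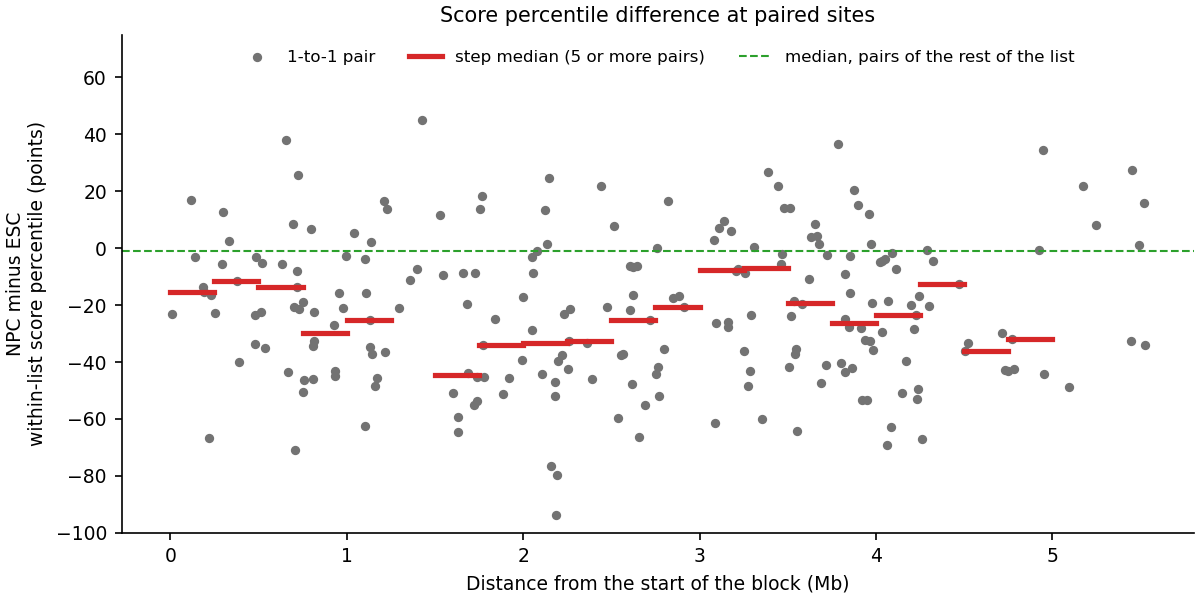
Difference in within-list score percentile, NPC minus ESC (y axis, points), at each of the 224 paired sites (grey points) against distance from the start of the block in Mb (x axis). Red bars are medians of the 250 kb steps with at least 5 pairs, all between -44.5 and -7.10, and the dashed green line is the median of pairs outside the block, -1.12.

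The 5 pairs that ranked lowest in NPC relative to ESC all ranked above percentile 87 in the ESC list. They were picked for the largest falls in percentile, a choice that itself requires a high ESC percentile. At 149186877 to 149187517 (ESC peak) the score was 102 in NPC, percentile 0.915, and 1792 in ESC, percentile 94.8. Near it, at 149191363 to 149192115, the percentile was 8.06 in NPC and 87.8 in ESC, and at 149157935 to 149158596 it was 10.4 in NPC and 87.0 in ESC. These 3 sites lie in the step that ended at 149.25 Mb, as does the ESC-only peak at 149197978. The other 2 pairs were at 147705149 to 147705905, with percentiles of 17.7 in NPC and 88.5 in ESC, and at 151060202 to 151060881, with 18.9 in NPC and 88.0 in ESC.

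Pairs with a higher rank in NPC were fewer and spread over the block. At 148427986 to 148428391 (ESC peak) the percentile was 53.9 in NPC and 8.90 in ESC, and at 147655704 to 147656323 it was 79.8 in NPC and 41.9 in ESC. At 150786145 to 150786529 it was 49.5 in NPC and 13.1 in ESC, at 151944759 to 151945268 it was 79.9 in NPC and 45.5 in ESC, and at 152453650 to 152454255 it was 97.3 in NPC and 69.7 in ESC. The last of these is in the terminal stretch of the block.

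Some sites of the block were among the strongest of both lists. The 5 pairs with the best worse-of-both rank had ESC peaks at 152489060 to 152490021, 150663813 to 150664618, 150178325 to 150178981, 149642996 to 149643870 and 147141768 to 147142622. Their percentiles ranged from 91.6 to 99.99 in NPC and from 94.0 to 98.6 in ESC. The pair at 150178325 ranked 6 in the NPC list with a score of 3212, and 3238 in the ESC list. The difference, NPC minus ESC, was between -6.37 and 5.97 points at these sites, which were picked for high ranks in both lists.

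Set against sites of like ESC rank elsewhere, the paired sites of the block above the median of the ESC list ranked lower in NPC. Among pairs with an ESC percentile above 50 and up to 75, the median NPC percentile was 31.2 (22.2 to 38.5) at the 83 pairs of the block and 59.9 (59.3 to 60.5) outside it. Above an ESC percentile of 75 it was 68.5 (56.7 to 78.5) at the 84 pairs of the block and 81.9 (81.5 to 82.3) outside. Above 25 and up to 50 it was 22.6 (17.0 to 41.7) at 45 pairs of the block and 41.3 (40.6 to 42.0) outside, so that these intervals overlapped. Up to an ESC percentile of 25 the block had 12 pairs, with a median NPC percentile of 24.7 (10.6 to 49.5) against 31.2 outside, inside that interval. Of the 114 pairs in the highest of 3 equal score groups of the ESC list, 23 (20.2%, 13.2 to 28.7) fell into the lowest of 3 groups of the NPC list, against 6.15% (5.80 to 6.52) of such pairs outside the block.

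**Figure D3:**
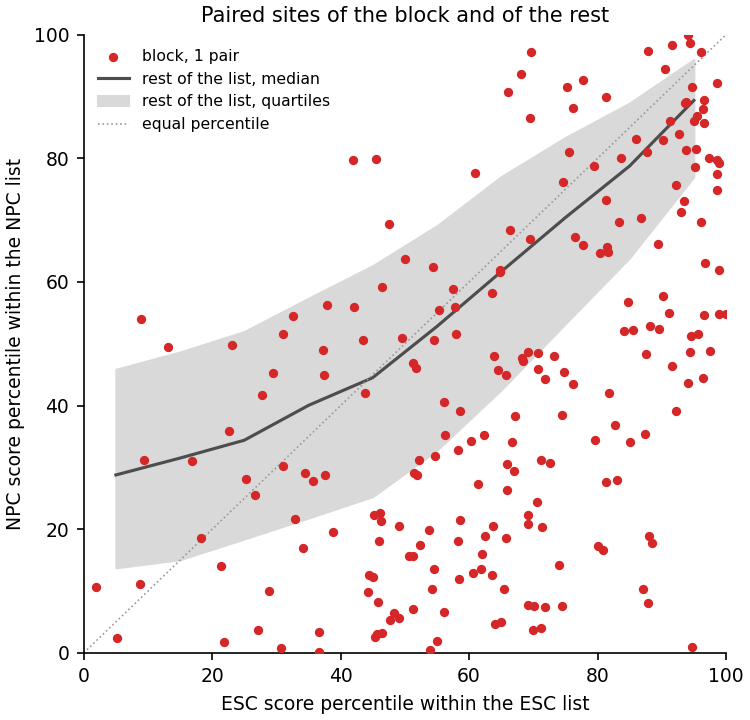
NPC score percentile within the NPC list (y axis) against ESC score percentile within the ESC list (x axis) at the 224 paired sites of the block (red points), with the median (line) and quartiles (grey band) of pairs outside the block in 10 bins of ESC percentile. Between ESC percentiles of 50 and 75 the median of the block is 31.2 and that of the rest 59.9. Of the 114 pairs of the block in the highest ESC score group, 48 (42.1%) are also in the highest NPC group, against 68.7% outside the block.

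With sharing by 1 bp, ESC-only shares of the block were above those outside at matched score as well, and NPC-only shares were below in the lowest score group. Each list was divided into 3 equal groups by score. In the lowest group 24.0% (16.7 to 32.6) of the 121 NPC peaks of the block were NPC-only, against 45.0% (44.2 to 45.7) outside it, and 78.9% (70.0 to 86.1) of its 109 ESC peaks were ESC-only, against 56.0% (55.3 to 56.8). In the middle group the shares were 10.0% (4.68 to 18.1) of 90 NPC peaks, against 17.3% (16.7 to 17.9) outside, with overlapping intervals, and 38.3% (30.2 to 46.9) of 141 ESC peaks, against 19.9% (19.3 to 20.5). In the highest group 0 of 55 NPC peaks were unshared, against 2.03% outside. A count of 0 allows a share of up to 5.45% by a limit of 3 counts and up to 6.49% by the exact interval. The 2.03% lies inside that interval, so 55 peaks are too few to place the block apart from the rest. Of the 127 ESC peaks in the highest group, 11 were unshared (8.66%, 4.40 to 14.97), against 1.77% (1.58 to 1.97) outside. At the rates of the rest of each list in the same score groups, 26.7% of the NPC peaks and 24.3% of the ESC peaks of the block would be unshared, beside the observed 14.3% and 40.1%. The block was chosen by overlap class and score, so these values only describe it and are no separate evidence of a difference.

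**Figure D4:**
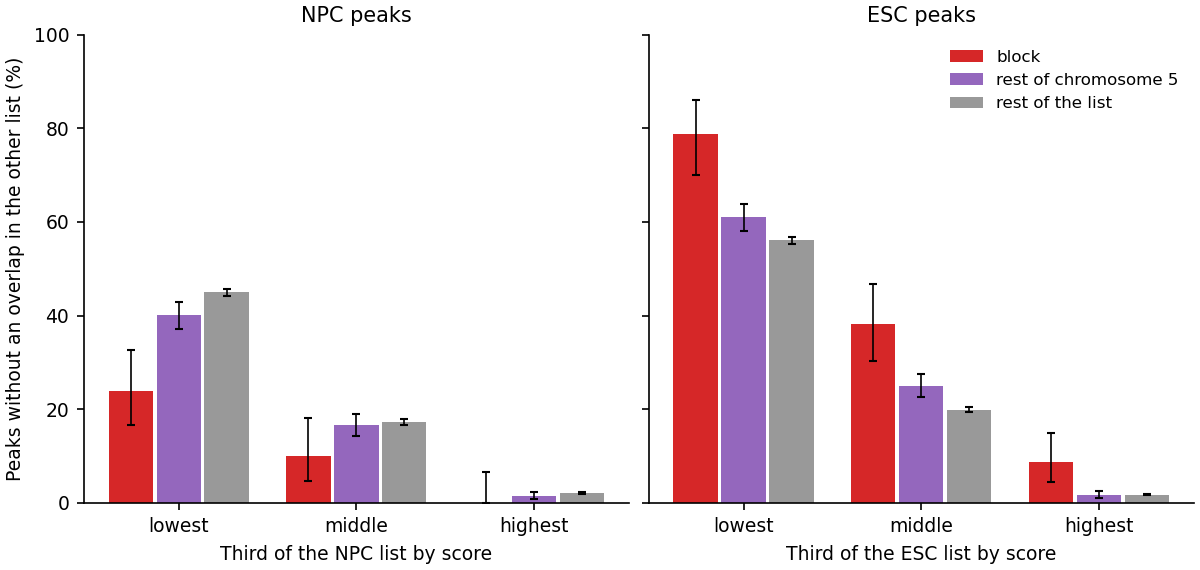
Percentage of peaks without an overlap in the other list (y axis) in 3 equal score groups of each list (x axis), NPC peaks in the left panel and ESC peaks in the right; bars show the block, the rest of chromosome 5 and the rest of the list, with exact Clopper-Pearson 95% intervals. NPC shares of the block are below the rest in the lowest group, 24.0% against 45.0%, and its ESC shares are above the rest in every group.

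Peaks were closer together in the block than over the rest of the lists, and NPC peaks were narrower. The median spacing of neighbouring peak centres was 12207 bp in NPC, against 19618 bp over the rest of the NPC list, and 8832 bp in ESC, against 18059 bp over the rest of the ESC list. On the rest of chromosome 5 it was 17366 bp in NPC and 14870 bp in ESC. Dense stretches were not confined to the block, as the 5 Mb lying 20 to 25 Mb before it held 279 NPC and 311 ESC peaks. Median width was 394 bp (interquartile range 322 to 477) in NPC, against 433 bp outside the block, and 584 bp (485 to 686) in ESC, against 573 bp outside. At the 224 pairs the NPC peak was narrower than the ESC peak in 212, where over all pairs it was narrower in 87.4%, and the median ratio of NPC to ESC width was 0.654 in the block, 0.747 on the rest of chromosome 5 and 0.762 over all pairs outside the block. The median distance between the paired centres was 33.5 bp in the block and 32 bp outside. No NPC peak of the block spanned more than 1 ESC peak, and 2 ESC peaks spanned 2 NPC peaks each. The ESC peak at 150072824 to 150074030 (percentile 97.5) covered NPC peaks at percentiles 0.138 and 52.1, and that at 150327052 to 150328427 (percentile 98.3) covered NPC peaks at percentiles 94.9 and 53.8. Unshared peaks were the narrower ones in both lists, with a median of 346.5 bp for NPC-only and 402 bp for shared NPC peaks of the block, and of 492 bp for ESC-only and 642.5 bp for shared ESC peaks. The same order held outside the block, with 346 bp against 462 bp in NPC and 457 bp against 619 bp in ESC. The part of width in the overlap was not tested.

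The block was set beside the rest of chromosome 5 in 29 segments of 5 Mb counted back from its start. The median difference at pairs was between -19.7 and 4.49 points in these segments, against -22.0 in the block. The segment nearest in value lay 15 to 20 Mb before the block, with a median of -19.7 points at 166 pairs, 6.88% of 189 NPC peaks and 41.8% of 294 ESC peaks unshared. A segment 50 to 55 Mb before the block had a like ESC-only share, 40.3% of 77 ESC peaks, with 24.6% of 61 NPC peaks unshared and a median of 0.31 points at 46 pairs. The segments between the one at 15 to 20 Mb and the block had medians of -3.88, 0.46 and -5.28 points, so the low values did not run continuously along the chromosome. The neighbouring segment, up to 5 Mb before the block, had 14.5% of NPC peaks and 26.0% of ESC peaks unshared. In the stretch from 110 to 130 Mb of chromosome 5, which also held many ESC-only peaks, 15.6% (13.2 to 18.2) of 835 NPC peaks and 35.6% (32.7 to 38.5) of 1082 ESC peaks were unshared, and the median difference was -5.19 points (-8.10 to -3.84) at 689 pairs. The chromosome-wide median was between -2.89 and 0.36 points on the 17 autosomes other than 5 and 15, -4.65 points on chromosome 5 including the block, and 8.36 points on chromosome 15. At the start of the block the nearest peaks outside it were an NPC-only peak at percentile 55.6 and a shared ESC peak at percentile 68.7, and the first inside were a shared NPC peak at percentile 22.2 and an ESC-only peak at percentile 4.44.

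**Figure D5:**
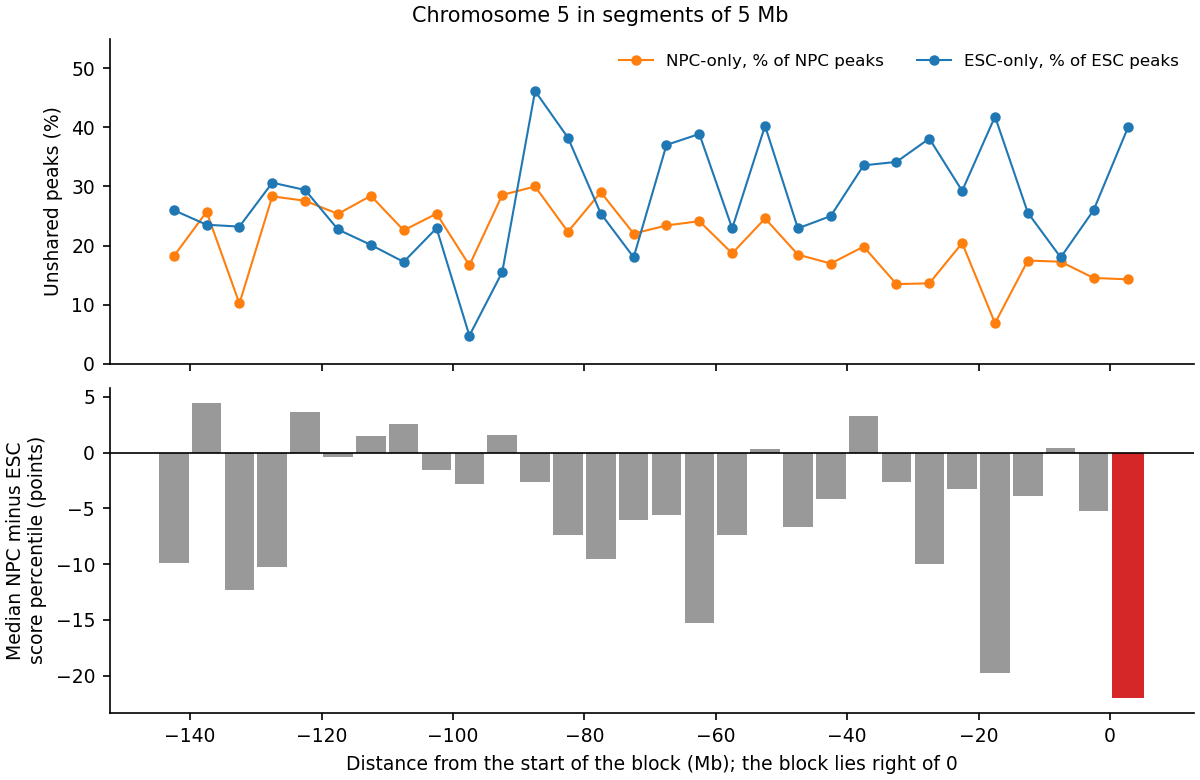
Chromosome 5 in segments of 5 Mb, by distance from the start of the block in Mb (x axis, negative before the block). The upper panel gives the unshared percentage in each list, and the lower panel the median NPC minus ESC score percentile at paired sites in points; the block, in red, is at -22.0, and the segments before it lie between -19.7 and 4.49. The segment with 46.2% ESC-only peaks holds 13 ESC peaks.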

How the data were processed

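CTCF ChIP-seq was measured in 1 NPC and 1 ESC library. Per the file headers, the authors used MACS to call peaks, with a list for each library; both track names end in CONTROL, which the files do not explain, and per the labels both are read here as CTCF peaks; per the submitters' processing notes, the build is mm9. Not given in the sources used here are aligner, MACS version, threshold and control. The authors deposited 1 score per peak, of at least 100, whose definition the files do not state. Depth per sample is unknown, so precision comes from peak numbers alone. Depth and background set how many weak peaks a list holds.

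Positions are 1-based. Peaks were assigned to the block and to steps of 250 kb by centre, pairs by the ESC centre. Shared means an overlap of at least 1 bp. Percentiles are score ranks within the whole list. Shares carry exact Clopper-Pearson 95% intervals, medians order-statistic intervals; peaks are not replicates, and no test was made. The members, lists and comparisons were chosen with earlier results of these data known. Named peaks are the 10 highest-scoring unshared peaks per list, the 5 pairs best in both lists, the 5 largest differences each way, ESC peaks spanning 2 or more NPC peaks, the longest run, and the steps with most unshared peaks. Alternatives were other overlap rules, score limits, equal list lengths, block limits, step size and percentile base. The overlap code was tested on simulated data. Of 29 listed genes, 29 matched RefSeq on GRCm38.p6, used for names and order only. No mm9 sequence was used, so the CTCF motif was not searched. Python 3.11.15, numpy 2.4.6, pandas 2.3.3, scipy 1.17.1 and matplotlib 3.10.9 were used.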

Additional observations from a re-analysis of the deposited data

How the results depend on the processing

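With 50% reciprocal overlap the unshared shares of the block were 33.5% of NPC peaks (89 peaks) and 53.1% of ESC peaks, where the whole lists had 28.1% and 31.7%, the median percentile of the pairs in NPC was 49.0, the median difference was -15.8 points at 177 pairs, and 11 steps of 250 kb had more unshared than shared ESC peaks; the cause was not tested. With peak centres within 100 bp 21.1% of NPC peaks were unshared, and with peaks within 1 kb counted as shared 34.5% of ESC peaks were. No whole-list share is given here under either rule, so these values cannot be set beside those of the lists. Among the upper 50% of each list by score, set against the whole other list, 3 of 97 NPC peaks (3.09%) and 34 of 203 ESC peaks (16.7%) were unshared; this limit leaves out the low-scoring peaks, which were more often unshared in both lists. Ranked among paired peaks only, the median percentiles were 34.1 in NPC and 56.7 in ESC, while the difference (-20.9 points) stayed inside its interval. With steps of 500 kb, 1 of 12 steps had more unshared than shared ESC peaks, against 6 of 23 at 250 kb. With lists of equal length, with the start of the block moved in by 1 Mb, or without the second Mb of the block, all the values recomputed stayed inside their intervals, or for counts within 1.5 times; without that Mb 36.1% of ESC peaks were unshared and the median difference was -21.5 points. The ESC-only share was above the NPC-only share, and the median difference negative, under every alternative that gave them. Both directions also held over the whole lists, with 26.0% of ESC and 21.4% of NPC peaks unshared and a median difference of -1.18 points. The alternatives reuse the 2 lists from which the block was chosen, so they are no independent check. The motif search was not run. No paired analysis was possible because there was 1 library per cell type, and for the same reason no library could be left out. Unknown depth limits what a missing overlap means: it may be a site under the calling limit.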

Other observations

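The terminal stretch of the block, from 152 Mb, was sparse. It held 9 NPC peaks, of which 1 was NPC-only, and 10 ESC peaks, of which 2 were ESC-only. Of its 8 paired sites, 3 ranked lower and 5 higher in NPC, with a median difference, NPC minus ESC, of 4.59 points and a range from -48.7 to 27.6. This is the 1 Mb window of the block with a positive median; in the other 5 it lay between -28.9 and -19.0 points. The 8 pairs are too few to place the stretch apart from the rest.

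Scores of paired sites were related across peaks in the block as elsewhere. Spearman's rho between NPC and ESC scores was 0.54 at the 224 pairs of the block and 0.62 at the 39371 pairs outside it, and Pearson's r on log10 scores was 0.51 in the block and 0.61 outside. These are correlations across peaks of the same 2 libraries, which share those libraries' depth, and they carry no p-value.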
